A study of Mus musculus with 15 samples.

Results

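Oligodendrocyte precursor cells (OPCs) of the mouse prefrontal cortex (PFC) were taken as the cells whose deposited cluster name, without its number, was OPC. They numbered 808 of 35360 retained cells: 767 of 24822 at P60 and 41 of 10538 at P21. Single-cell RNA was counted in 15 droplet libraries of male C57BL/6N mice. The 12 P60 libraries, each of 2 pooled mice, came from mice labelled as 8 to 10 weeks old. They had gone through intravenous self-administration (IVSA) of saline or cocaine. For each treatment 2 libraries were made at the end of the maintenance phase, after 48 h of withdrawal and after 15 days of withdrawal. All P60 mice, saline mice included, had therefore undergone the procedure. In the paper catheters were implanted at P60, before IVSA. The tissue was thus taken after P60, and longer withdrawal went with greater age. The 3 P21 libraries came from mice of 3 weeks without IVSA. The paper's number of P21 mice makes fewer pools of 2 than there are libraries, so P21 libraries may share mice, and p-values that treat the 3 as separate may then be too small. One label names the nucleus accumbens as the tissue, whereas the sample titles and the paper name the PFC, which is the name used here. The authors' own clustering named the P60 cells, among them 9 numbered OPC sub-clusters, whereas the P21 cells got their names by correlation with the P60 clusters and have no sub-cluster number.

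OPCs are dividing glial cells that remain in the adult cortex. They depend on platelet-derived growth factor, which they sense through the receptor Pdgfra, and they carry the proteoglycan Cspg4 (NG2) on their surface. They receive synapses from neurons through glutamate and GABA receptors. When they commit to differentiation they pass through a stage marked by Gpr17, Bmp4 and Enpp6, here called newly formed oligodendrocytes (NF Oligo), and then switch on the genes of myelin.

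The libraries held unequal numbers of OPCs. At P60 they ranged from 3 to 178 cells, with a median of 51, and at P21 the libraries held 28, 7 and 6. The OPCs of a P60 library held 10667 to 689235 UMIs (unique molecular identifiers, each counting 1 RNA molecule), and those of a P21 library 12483 to 92694. The median OPC had 3405 UMIs and 1785 genes at P60 and 2801 UMIs at P21. Saline maintenance replicate 2, with 3 OPCs, was left out of the gene levels by library and the gene tests below, so saline maintenance has 1 library there. Its 3 OPCs remain in counts and levels over pooled cells, such as those of cycling cells and sub-clusters. Levels are given in CPM, the UMIs of a gene summed over the OPCs of a library as a share of those of 25989 genes (all but mitochondrial and ribosomal protein genes), scaled to the same total in every library. Of the 808 OPC barcodes, 35 were also used by a cell of another library, as were 1505 of all 35360 cells, and 0 were shared between OPCs.

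The paper used Pdgfra as the marker of this type, so the levels of this gene describe the label and cannot test it. Pdgfra, on chromosome 5 (chr5:75548316-75594229, NCBIM37, plus strand), was at 775 ± 218 CPM (SD, n = 11 libraries) in P60 OPCs. The libraries lay between 416 and 1099 CPM with a median of 789, and all were above the highest library of any other type, at 122 CPM. At least 1 Pdgfra UMI was found in 87.6% of P60 OPCs (672 of 767, median depth 3405 UMIs), against 3.27% of NF Oligo (median depth 5543.5 UMIs) and 0.602% of excitatory neurons (median depth 13620 UMIs). After each cell was thinned to 2000 UMIs, the shares were 72.8% of OPCs and 2.68% of NF Oligo. At P21 the 3 libraries held 619, 346 and 557 CPM, and 68.3% of the 41 OPCs had a Pdgfra UMI. Only 22 of these 41 were also OPCs by the authors' broader class, while the others were classed as astrocytes (7), excitatory neurons (4), NF Oligo (4), endothelial cells (2) and microglia (2). All 767 P60 OPCs had the class OPC as well. The P21 name therefore rests on weaker ground than the P60 name.

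The cell types were defined by clustering these same counts, so levels across types are given as a description, with no test. Of 26 genes listed for OPC identity, 21 had their highest P60 mean in OPCs. The median P60 OPC held a UMI of 16 of the 26, the median NF Oligo of 8 and the median astrocyte of 4. Cspg4 was at 270 ± 85.7 CPM (n = 11), 3.45 times the level in endothelial cells. Ptprz1, a receptor phosphatase that binds pleiotrophin, was at 1359 ± 309 CPM, 3.76 times the level in astrocytes. Cacng4, an auxiliary subunit of AMPA receptors, was at 514 ± 67.6 CPM and C1ql1, a secreted C1q-like protein, at 179 ± 49.9 CPM, 5.66 and 6.80 times their levels in NF Oligo. In all 4 genes the lowest OPC library lay above the highest library of any other type. Among the other members, Megf11 was at 101 ± 32.9 CPM, 12.7 times the level in inhibitory neurons, whereas the transcription factor Sox6 was at 150 ± 36.9 CPM against 142 ± 44.1 in NF Oligo, whose libraries overlapped. Of the 26, 5 were not highest in OPCs: Tnr, Sox10, Nkx2-2 and Neu4 had their highest mean in NF Oligo and Gria3 in excitatory neurons. Sox10, which is needed throughout the lineage, was at 306 ± 104 CPM in OPCs and 352 ± 51.2 in NF Oligo.

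**Figure D1:**
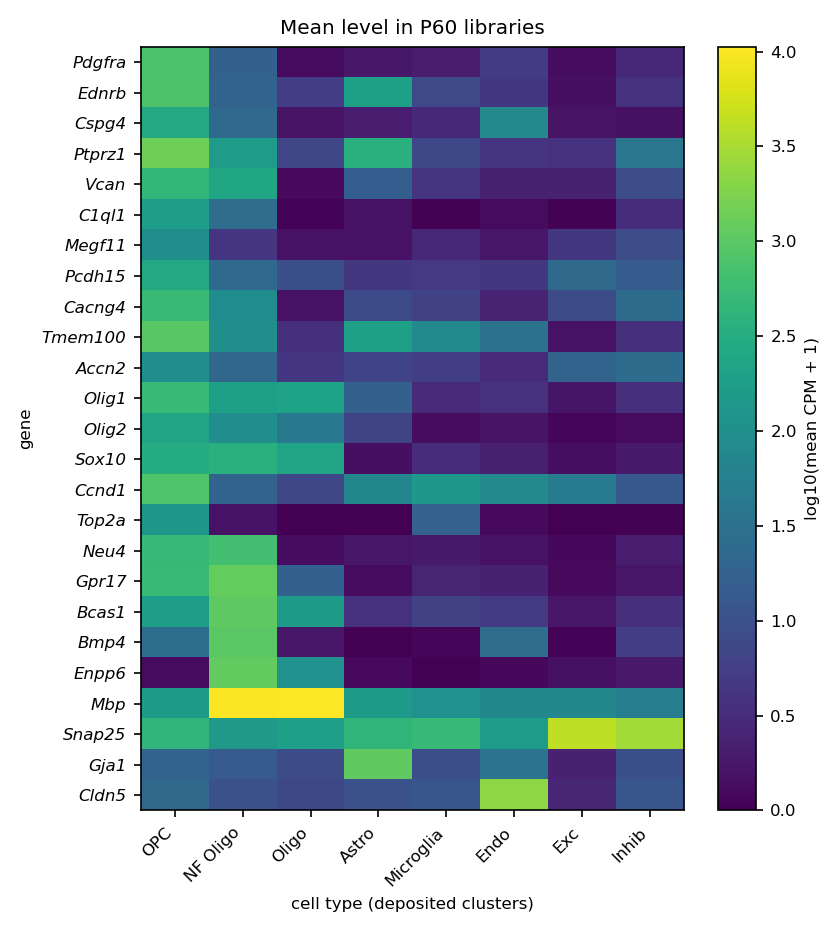
Mean level of 25 genes (rows) in the 8 deposited cell types of the P60 libraries (columns), as log10 of the mean CPM plus 1, with brighter colours for higher levels. Pdgfra was at 775 CPM in OPCs and 16.9 in NF Oligo, Enpp6 at 0.292 in OPCs and 1132 in NF Oligo, and Mbp at 156 in OPCs and 10570 in mature oligodendrocytes.

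None of the 15 genes listed for commitment had its highest level in OPCs, and 14 had it in NF Oligo. The exception, Casr, had 0 UMIs in OPCs. The distance between OPCs and NF Oligo differed by gene. Gpr17, a receptor of the transition, was at 531 ± 116 CPM in OPCs and 1201 ± 246 in NF Oligo, and a UMI of it was found in 74.6% of OPCs and 95.8% of NF Oligo. Bmp4, a secreted signal, was at 27.1 ± 16.5 CPM against 1000 ± 210, and 6.65% of OPCs had a UMI. Enpp6, a choline phosphodiesterase, had 2 UMIs in all 767 OPCs and was at 1132 ± 151 CPM in NF Oligo. Gpr17 RNA thus reached well into OPCs, whereas Bmp4 was low and Enpp6 nearly absent from them. Fyn, a kinase needed for myelination, was at 155 ± 50.6 CPM against 2840 ± 385, and Bcas1 at 178 ± 42.1 against 1067 ± 196. All 16 myelin genes were likewise highest outside OPCs, 15 in mature oligodendrocytes and Gjc3 in NF Oligo. Mbp, myelin basic protein, was at 156 ± 119 CPM in OPCs and 10570 ± 985 in mature oligodendrocytes. None of 21 genes of cholesterol synthesis or of 22 immediate early and stress genes was highest in OPCs either, and Fos was at 4943 ± 1168 CPM in OPCs and 8741 in endothelial cells.

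As a background for the counts of list members below, 779 of 3686 genes at 50 CPM or more in P60 OPCs were highest there. The lists have no such cutoff. Among 21 growth factor and signalling receptors, 5 were highest in OPCs. Besides Pdgfra these were the endothelin receptor Ednrb (798 ± 188 CPM, 4.12 times astrocytes), the lipoprotein receptor Lrp1 (396 ± 56.1, 2.06 times microglia), the Wnt receptor Fzd9 (33.8 ± 15.7) and Ntrk3 (46.4 ± 25.1). Fgfr2, Fgfr3 and Igf1r, receptors for fibroblast and insulin-like growth factors, were at 2.97 ± 4.27, 12.3 ± 7.22 and 3.04 ± 3.91 CPM, each with its highest level in another type. Of 22 transcription factors of the Id, Notch and Sox groups, 8 were highest in OPCs. They included Olig1 (531 ± 89.4 CPM, 2.47 times mature oligodendrocytes), Olig2 (222 ± 67.7, 2.39 times NF Oligo) and Sox5 (162 ± 29.3, 1.75 times astrocytes).

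Receptors for transmitters were detected at lower levels. Of 30 glutamate and GABA receptor genes, 7 had their highest mean in OPCs: Cacng4, Cacng5, the AMPA subunit Gria4, the kainate subunits Grik1, Grik4 and Grik5, and the NMDA subunit Grin3a. Grin3a was at 127 ± 30.3 CPM in OPCs and 66.5 ± 34.6 in inhibitory neurons. The AMPA subunit Gria2, which limits calcium entry, was at 511 ± 89.8 CPM against 648 ± 46.9 in excitatory neurons. Of 18 genes of ion channels and their partners, 6 were highest in OPCs, led by Tmem100 (952 ± 369 CPM, 4.87 times astrocytes), a membrane adaptor that is itself no channel, the potassium channel partner Kcnip3 (310 ± 93.2, 3.97 times excitatory neurons) and the acid-sensing channel Accn2 (95.1 ± 27.8, 3.79 times inhibitory neurons). Neuronal RNA was present in these libraries, as set out below, and its part in the levels of receptor and channel genes was not tested. Of 25 matrix and adhesion genes, 10 were highest in OPCs, among them the adhesion molecule Cntn1 (849 ± 119 CPM, 3.43 times excitatory neurons), the lectican Vcan (468 ± 73.1, 1.95 times NF Oligo), Sdc3 (242 ± 29.3, 2.39 times endothelial cells) and Nlgn3 (252 ± 36.1, 1.87 times NF Oligo).

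Ranking all genes gave members that the lists did not hold. Of 3686 genes at 50 CPM or more in P60 OPCs, 779 had their highest mean there, 129 by more than 2 times, 40 by more than 5 times and 18 by more than 10 times. The largest ratio was that of Pnlip, which codes for a lipase known from the pancreas, at 101 ± 39.1 CPM and 70.8 times the next type. Cdo1, cysteine dioxygenase, was at 734 ± 169 CPM (15.4 times astrocytes), Ppapdc1a, a lipid phosphatase, at 219 ± 67.8 (15.2 times), Emid1 at 149 ± 35.6 (14.9 times) and Lnx1, a ubiquitin ligase, at 148 ± 34.1 (8.13 times). Pbk (179 ± 130 CPM, 31.1 times), Spc25 (62.9 ± 38.4) and Cdca8 (89.6 ± 84.4), which act in mitosis, were also among the 25 genes with the largest ratios, with a wide spread between libraries.

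Of 25 cell cycle genes, 23 had their highest mean in OPCs. Top2a, the topoisomerase of dividing cells, was at 132 ± 108 CPM, 7.42 times microglia. Cells with UMIs of at least 5 of the 25 genes made up 6.91% of P60 OPCs (53 of 767), 0 of 336 NF Oligo, which allows a share of up to 0.893%, and 0.691% of microglia. The cycling OPCs had a Pdgfra level of 766 CPM, against 752 in the other OPCs, and a Gpr17 level of 261 against 553 CPM. Their median depth was 4101 UMIs, against 3383.5. By library the share lay between 1.12% (2 of 178 OPCs, cocaine 48 h replicate 2) and 28.9% (13 of 45, saline 15 d replicate 1) among those with at least 5 OPCs. In cocaine 15 d replicate 2, 4 of 20 OPCs met the rule, and in the other libraries 3.77% to 10.2%. At P21, 0 of 41 retained OPCs met it, which allows a share of up to 7.32% of those retained. All these are shares of retained OPCs. In saline 15 d replicate 1 and cocaine 15 d replicate 2, 86 of 129 and 53 of 74 barcodes with OPC markers were not retained. Of those left out, 0 held a Top2a UMI. The marker rule and the barcodes that were not retained are described below.

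The 9 sub-clusters differed in what set them apart. OPC_1, with 53 cells from 12 libraries, held 45 of the 53 cycling OPCs, and the summed level of the cell cycle genes was 14680 CPM in it and between 162 and 1336 CPM in the other 8. Ccnb1, cyclin B1, was at 807 CPM in it against 5.62 in the other OPCs, with a UMI in 30 of its 53 cells, and Cdca8 at 658 against 4.75 CPM, with a UMI in 41. Its summed level of commitment genes was 1202 CPM, the lowest of the 9. In OPC_3, OPC_4, OPC_5, OPC_6, OPC_7 and OPC_9, by contrast, a single gene was found in every cell. They were Pcdhb10 (17 of 17 cells), Dnahc8 (36 of 36), Matn1 (27 of 27), Rhcg (57 of 57), 6430503K07Rik (56 of 56) and Otos (70 of 70). Most of these cells had just 1 UMI of the gene, for example 34 of 36 for Dnahc8 and 64 of 70 for Otos. The next gene of these 6 sub-clusters was 2.23 to 6.38 times its level in the other OPCs. OPC_8, the largest with 284 cells, had no such gene: its leading gene, Vip, was found in 3 of 284 cells. These counts describe clusters drawn from the same values and carry no test.

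**Figure D2:**
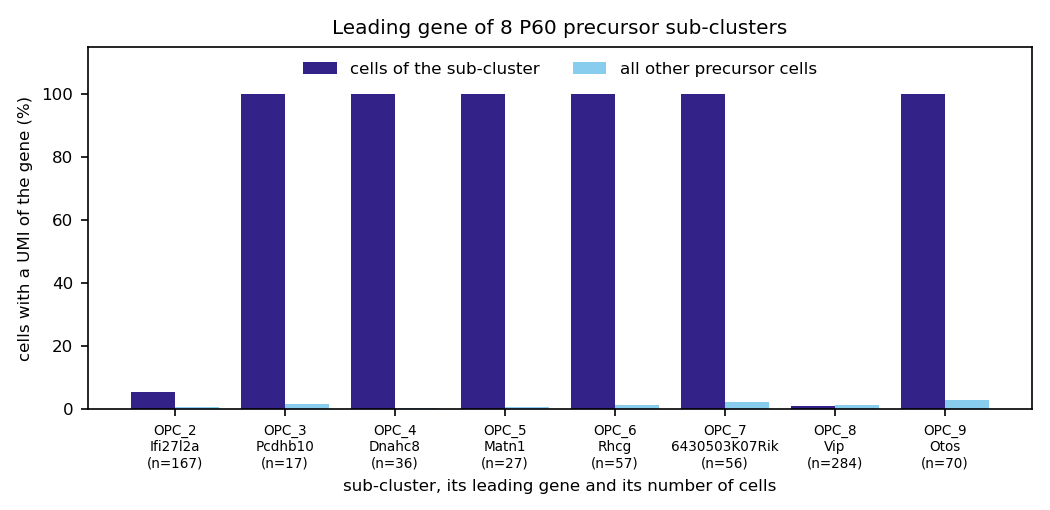
Share of cells (%) with a UMI of the leading gene in 8 P60 OPC sub-clusters, OPC_2 to OPC_9 (dark bars) and in all other P60 OPCs (light bars), with the gene and the number of cells under each pair. In OPC_3 to OPC_7 and OPC_9 all cells of the sub-cluster held a UMI of 1 gene, and in OPC_8 3 of 284 held Vip.

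OPC_2, with 167 cells, was led by Ifi27l2a, Apod, Aspa, Aqp1 and Mgst1, and its Apod level was 2766 CPM against 135 in the other OPCs. Of its 1391 Apod UMIs, 1256 came from cocaine 48 h replicate 2. Across all P60 OPCs, 16 cells had 10 or more Apod UMIs, 14 of them among the 178 OPCs of that library and 2 in cocaine 15 d replicate 2. Of these 16 cells, 0 had a Pdgfra UMI, at a median depth of 3601.5 UMIs. Their UMIs gave 23180 CPM of the peptide Npy (213 in the other OPCs), 4403 of the matrix protein Sparc (55.3), 2511 of Vtn (42.9), 1743 of Frzb (32.8) and 1031 of the water channel Aqp1 (0.801). These cells thus lacked the defining OPC marker, and they are given no name here. The calls at 48 h and several medians of gene lists are given with and without them. The genes called at 48 h, at 15 days or by age were tested again without cells with 10 or more Apod UMIs. Of those still tested, 20 kept their call. Another 6, the 2 genes of 48 h among them, kept their direction without a call.

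RNA of other cell types was measured in the OPCs. Snap25, a synaptic protein of neurons, had a UMI in 45.8% of P60 OPCs (351 of 767), and the share was 55.1% to 77.8% in the 4 libraries at 15 days and 35.3% to 45.8% in the other P60 libraries with at least 5 OPCs. The summed level of 13 neuron genes was 8117 to 16660 CPM in the 15-day libraries and 3080 to 4163 CPM in the others. The summed OPC identity genes went the other way, with 9781 to 12490 CPM at 15 days and 13660 to 16600 in the others. The glutamate transporter gene Slc17a7 had a UMI in 9.78%, the astrocyte gene Gja1 in 4.69%, the microglial gene C1qa in 4.30% and the endothelial gene Flt1 in 2.09% of P60 OPCs. Dcn, a fibroblast gene, was found in 0 of 767, which allows a share of cells with a UMI, not of cells that express the gene, of up to 0.391%.

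All deposited barcodes, retained or not, were searched for OPC markers: a Pdgfra UMI together with UMIs of at least 3 of 6 genes (Pdgfra, Cspg4, Vcan, C1ql1, Cacng4 and Ptprz1). The rule was met by 86.2% of P60 OPCs (661 of 767), 2.68% of NF Oligo and 0.0346% of excitatory neurons. Among barcodes with these markers, 10.3% (18 of 175) were not retained by the authors at maintenance, 44 of 399 at 48 h and 63.2% (304 of 481) at 15 days. By library at 15 days the shares were 73.0% and 71.6% for cocaine and 66.7% and 42.9% for saline. The barcodes left out at 15 days were deeper than the retained OPCs, with a median of 5169 against 3880 UMIs, and Snap25 was found in 76.3% against 63.5%. At P21, 46 of 149 such barcodes were not retained, 78 were retained under another type and 25 as OPCs. A Top2a UMI was found in 20 of the 46 that were not retained (43.5%) in 0 of the 25 and in 0 of the 78. At P60 it was found in 36 of the 661 retained as OPCs (5.45%), in 1 of 28 retained under another type and in 0 of 366 that were not retained. The absence of Top2a at P21 thus holds for the retained OPCs and not for all barcodes with OPC markers. Retained OPCs were thus a minority of the barcodes with OPC markers at 15 days and at P21, and most of them at maintenance and at 48 h.

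**Figure D3:**
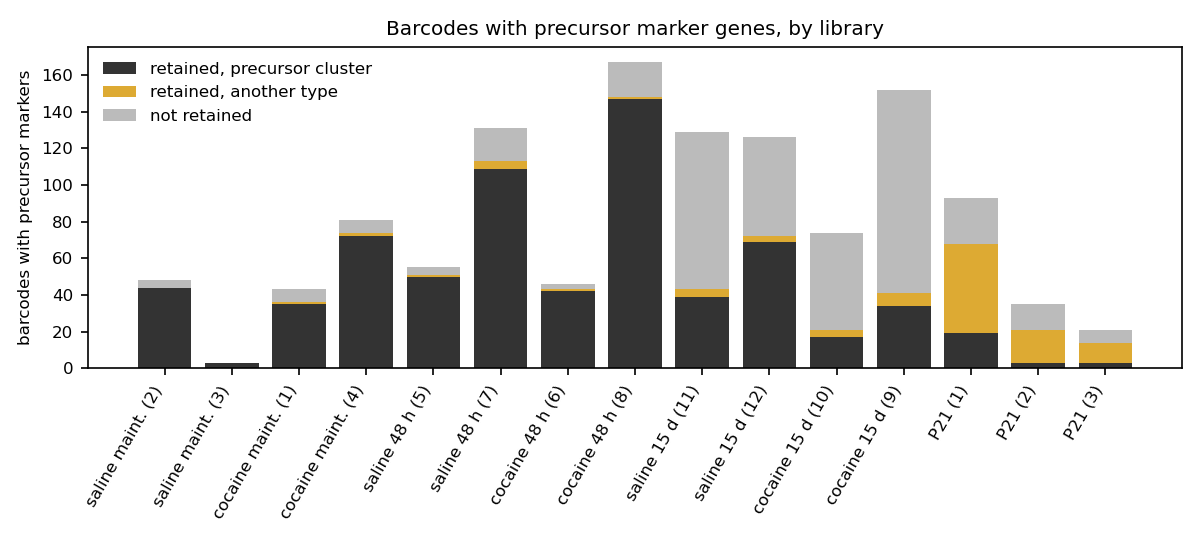
Number of deposited barcodes that met the OPC marker rule in each of the 15 libraries, split into those retained as OPCs (black), retained as another type (yellow) and not retained (grey). At 15 days 304 of 481 were not retained, at maintenance 18 of 175.

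Shares of cells asked whether cocaine or age changed the number of OPCs. OPCs were 3.84% ± 3.30 (SD, n = 6) of the retained cells in cocaine and 3.16% ± 2.31 (n = 6) in saline libraries. The cocaine libraries ran from 0.682% to 9.73% with a median of 2.99%, the saline libraries from 0.284% to 6.85% with a median of 3.31%, and the groups overlapped. The difference of 0.688 percentage points gave p = 0.63 in an exact two-sided permutation test within time points (216 arrangements, smallest possible p 0.00926), and the adjusted p over the 4 tests of shares was 0.667. It was 1.88 points at maintenance, 1.30 at 48 h and -1.11 at 15 days, and without cocaine 48 h replicate 2 it was -0.392. Within the lineage (OPCs, NF Oligo and mature oligodendrocytes), OPCs made up 29.4% ± 20.6 in cocaine and 26.3% ± 19.3 in saline libraries, a difference of 3.06 points (exact permutation p = 0.667). This difference also turned, to -2.95 without cocaine 48 h replicate 2 and to -2.98 without saline 48 h replicate 1. Among OPCs and NF Oligo alone its sign was reversed as well, as given with the dependence on processing.

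The share of OPCs had a lower mean at P21, but the difference did not pass the test. They made up 0.631%, 0.251% and 0.181% of the retained cells in the 3 libraries, and the highest of these lay above the lowest saline P60 library. The difference was -2.80 points (p = 0.0595 in an exact permutation test of 84 arrangements, smallest possible p 0.0119, adjusted p = 0.119). Within the lineage the P21 shares were 4.61%, 2.87% and 2.34%, all below the saline P60 libraries, which ran from 6.82% to 61.9% with a median of 22.2%. The difference of -23.0 points had the same p of 0.0595 in the exact permutation test, although the groups did not overlap, since the spread among the saline libraries was large. With all P60 libraries as the comparison it was -24.6 points (exact permutation p = 0.0352), and among OPCs and NF Oligo alone -68.8 points (exact permutation p = 0.0119, the smallest possible). NF Oligo were 518 of the P21 cells and 336 of the P60 cells. As a share of all deposited barcodes, those with OPC markers were 1.85%, 1.09% and 0.559% at P21 and 0.247% to 6.54% in the saline P60 libraries (difference -1.90 points, exact permutation p = 0.167). At 15 days they were 3.25% and 2.00% in cocaine and 2.54% and 3.15% in saline libraries, and over all time points cocaine minus saline was 0.662 points (exact permutation p = 0.537). Age cannot be told apart from the IVSA procedure of the saline P60 mice, or from the separate preparation and naming of the P21 libraries.

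Gene levels were then compared between cocaine and saline across the 11 P60 libraries, by edgeR's quasi-likelihood test with Benjamini-Hochberg adjustment over 5900 genes. A gene was called at an adjusted p below 0.05 and a change of more than 1.5-fold. In sums over cells, fewer cells with a gene and less RNA of it per cell cannot be told apart. Over all time points 0 genes (0%) were called, 277 had an unadjusted p below 0.05, and DESeq2 called 0. The lowest adjusted p was 0.0547, for 1190002H23Rik. Mcm7, a subunit of the replicative helicase, did not pass (log2 change -1.26 ± 0.30 (SE), adjusted p = 0.089 by edgeR) but did not overlap between groups: its 5 saline libraries lay at 52.8 to 105 CPM and its 6 cocaine libraries at 28.1 to 37.2 CPM. Of the 5900 genes, 14 (0.237%) were separated in this way. The count of 0 became 21 without saline 15 d replicate 2, 7 without cocaine 48 h replicate 1, 2 without cocaine maintenance replicate 1 or saline 15 d replicate 1, and 1 without cocaine 48 h replicate 2. At maintenance, where saline had 1 library that was assumed to vary like the others, edgeR called 0 genes (0%), with 249 at an unadjusted p below 0.05 and 0 by DESeq2. The lowest p there were those of Sdf2l1 and Manf, which code for proteins of the endoplasmic reticulum (log2 changes of 3.35 and 1.16, both with an adjusted p of 0.57 by edgeR).

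The lists described no shift of OPC genes with cocaine that passed the test. None of the members of the 16 lists was called over all time points, at any single time point or in the difference between 15 days and 48 h. The 26 identity genes had a median log2 change of -0.08 over all time points, with 7 above 0, beside a median of 0.01 over all 5900 genes. Pdgfra had a log2 change of -0.21 ± 0.13 (SE) over all time points (adjusted p = 0.996 by edgeR). The other lists of OPC genes (commitment, myelin, receptors, transcription factors, channels, matrix) had medians between -0.12 and 0.08 over all time points. Without the cells with 10 or more Apod UMIs these medians lay between -0.22 (myelin, 1 of 10 above 0) and 0.04, and that of the transcription factors turned from 0.08 to -0.03. At 48 h the identity genes had a median of -0.16 (5 of 26 above 0), and without those cells of -0.09 (7 of 26 above 0). At 15 days medians were -0.16 for identity (4 of 26 above 0), -0.35 for growth factor receptors (1 of 11), -0.28 for glutamate and GABA receptors (2 of 16), -0.46 for myelin (4 of 12) and 0.23 for commitment (8 of 9), beside 0.00 for all genes. The 12 neuron markers had a similar median at 15 days, of -0.27 with 3 above 0. The part of neuronal RNA in the receptor median was not tested. The 18 tested genes of cholesterol synthesis had a median of -0.25, with 6 above 0, and the 19 immediate early and stress genes one of 0.17, with 15 above 0 (0.11 without those cells, with 14 of 18 above 0). The 21 tested cell cycle genes had a median of -0.47 over all time points, with 4 above 0, and medians of 0.47 at maintenance, -0.64 at 48 h and -0.90 at 15 days. Their levels moved with single libraries. Saline 15 d replicate 1, in which 28.9% of retained OPCs were cycling, held 5343 CPM of the summed list. Cocaine 48 h replicate 2 held 541 CPM. The medians of the 12 neuron, 11 astrocyte, 2 microglia and 2 mural and fibroblast markers tested were 0.12, -0.05, 0.31 and 2.28 over all time points. Without the cells with 10 or more Apod UMIs the mural and fibroblast median was 1.58 over all time points and went from 2.34 to 0.26 at 48 h, while the myelin median went from 0.11 to -0.19 at 48 h and from -0.46 to -0.80 at 15 days, with 10 genes tested in place of 12, and the cell cycle median from -0.64 to -0.59. The 8 tested endothelial markers had a median of 1.23 over all time points (7 above 0), 1.61 at 48 h (7 above 0) and 1.57 at 15 days (8 above 0), with 0 called, and the sum of all 10 at 15 days was 1329 and 2946 CPM in the cocaine and 1052 and 1177 CPM in the saline libraries. At 48 h the sums overlapped, with 907 and 1182 CPM in cocaine and 1033 and 889 CPM in saline libraries.

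At 48 h of withdrawal 2 of 5900 genes (0.0339%) were called, 180 had an unadjusted p below 0.05, and DESeq2 called 0. Frzb, a secreted antagonist of Wnt signalling (chromosome 2, chr2:80252127-80287782, NCBIM37, minus strand), was at 33.1 and 19.5 CPM in saline and at 70.3 and 173 CPM in cocaine libraries. The groups did not overlap, as for 31.8% of the genes tested at 48 h, and the log2 change was 2.52 ± 0.43 (SE, adjusted p = 0.000878 by edgeR). In cocaine 48 h replicate 2, however, 91 of the 108 Frzb UMIs lay in the 14 cells with 10 or more Apod UMIs. Without such cells that library held 29.5 CPM, below 1 of the saline libraries, and the log2 change was 0.77 (adjusted p = 1 by edgeR; alternatives between 2.02e-05 and 1). Rasl11a, a small GTPase of the Ras-like group (chromosome 5, chr5:147656647-147659302, plus strand), was at 186 CPM in each saline library and at 77.3 and 56.2 CPM in cocaine libraries. It fell by 1.57 on the log2 scale (SE 0.33, adjusted p = 0.026 by edgeR), and without the cells with 10 or more Apod UMIs by 1.51 (adjusted p = 0.0874; alternatives between 0.00193 and 1). At the other times Rasl11a was at 83.7 and 83.0 CPM in cocaine and 112 CPM in saline at maintenance, and at 87.2 and 79.9 CPM in cocaine and 60.0 and 87.5 CPM in saline at 15 days. Leaving out 1 library left 0 calls without saline replicate 2 or cocaine replicate 2 of 48 h, 1 call without saline 48 h replicate 1 or either maintenance cocaine library, and gave 11 calls without cocaine 48 h replicate 1.

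At 15 days of withdrawal 5 genes (0.0847% of 5900) were called, all higher in cocaine, 250 had an unadjusted p below 0.05, and DESeq2 called 0. Cox5a, a nuclear-encoded subunit of cytochrome c oxidase (chromosome 9, chr9:57369039-57380231, NCBIM37), was at 55.4 and 199 CPM in saline and at 410 and 434 CPM in cocaine libraries, a log2 change of 1.65 ± 0.32 (SE, adjusted p = 0.015 by edgeR). Another gene model, Gm17596, lies within 300 bases of its 3′ end. Mrfap1 (chromosome 5, chr5:37186106-37188011) was at 217 and 249 against 513 and 525 CPM, a log2 change of 1.14 ± 0.23 (adjusted p = 0.0148 by edgeR). Both genes were higher in each cocaine library than in either saline library. Atxn7l3b was at 189 and 303 against 605 and 514 CPM (log2 change 1.18 ± 0.23), 1190002H23Rik at 138 and 262 against 611 and 480 CPM (1.43 ± 0.27), and 2310036O22Rik at 13.8 and 60.6 against 149 and 206 CPM (2.07 ± 0.44). The adjusted p was 0.0148, 0.0148 and 0.015 by edgeR. In all 5 genes saline replicate 2 held more than saline replicate 1, and the groups did not overlap, as for 30.9% of the genes tested. The summed astrocyte markers also differed between these groups, with 4309 and 6920 CPM in saline and 11520 and 9922 CPM in cocaine libraries, but the markers did not move together. Of 11 tested, 4 had a log2 change above 0 and the median was -0.16. Apoe had a log2 change of 1.65, whereas Gja1 (-1.09) and Aqp4 (-0.95) had the opposite sign, each with an adjusted p of 0.996 by edgeR. The 8 endothelial markers tested were all above 0, with a median of 1.57 and 0 called, and the endothelial sums given above did not overlap. The part of other cells' RNA in the 5 genes was not tested.

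Levels of these 5 genes were also compared in the 7 other cell types, which come from the same 4 libraries and are no independent replicates. The 2 cocaine libraries lay above the 2 saline libraries in each of the 7 types for Cox5a, Mrfap1, Atxn7l3b and 2310036O22Rik, and in 6 of 7 for 1190002H23Rik. Of the 5900 genes, 11.8% to 22.6% were separated in this direction in any 1 of these types, 70 (1.19%) in all 7 and 149 (2.53%) in at least 6. In excitatory neurons, for example, Cox5a was at 97.1 and 309 CPM in saline and at 632 and 708 CPM in cocaine libraries. Of the 48 h genes, neither Frzb nor Rasl11a separated the groups in the same direction in any of the 7 other types. In any 1 of these types 12.4% to 18.6% of genes were separated in a given direction at 48 h. The P60 means there were low, at 0.707 to 15.0 CPM for Frzb and 0.791 to 61.5 CPM for Rasl11a, against 70.5 to 276 CPM for Cox5a. The lack of separation therefore does not set OPCs apart. The difference between the effect at 15 days and that at 48 h was tested directly, and 0 genes (0%) passed, with 164 at an unadjusted p below 0.05 and 0 by DESeq2. That count was 3 without saline 15 d replicate 2, 2 without cocaine 48 h replicate 1 and 1 without cocaine 15 d replicate 2. For Cox5a this difference was 1.48 on the log2 scale and for Rasl11a 1.74, both with an adjusted p of 1 by edgeR. The count of 5 became 31 without saline 15 d replicate 2, all 5 among them, 3 without either maintenance cocaine library, 3 others without cocaine 15 d replicate 1, and 0 without cocaine 15 d replicate 2, saline 15 d replicate 1 or either saline 48 h library. With OPCs that held a Snap25 UMI left out, which removes 55.1% to 77.8% of the OPCs of each 15-day library, 0 genes were called at 15 days. The log2 changes were then 1.40 for Cox5a, 1.36 for 1190002H23Rik, 1.01 for Atxn7l3b, 1.00 for 2310036O22Rik and 0.54 for Mrfap1, with adjusted p of 0.504 to 0.913 by edgeR.

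**Figure D4:**
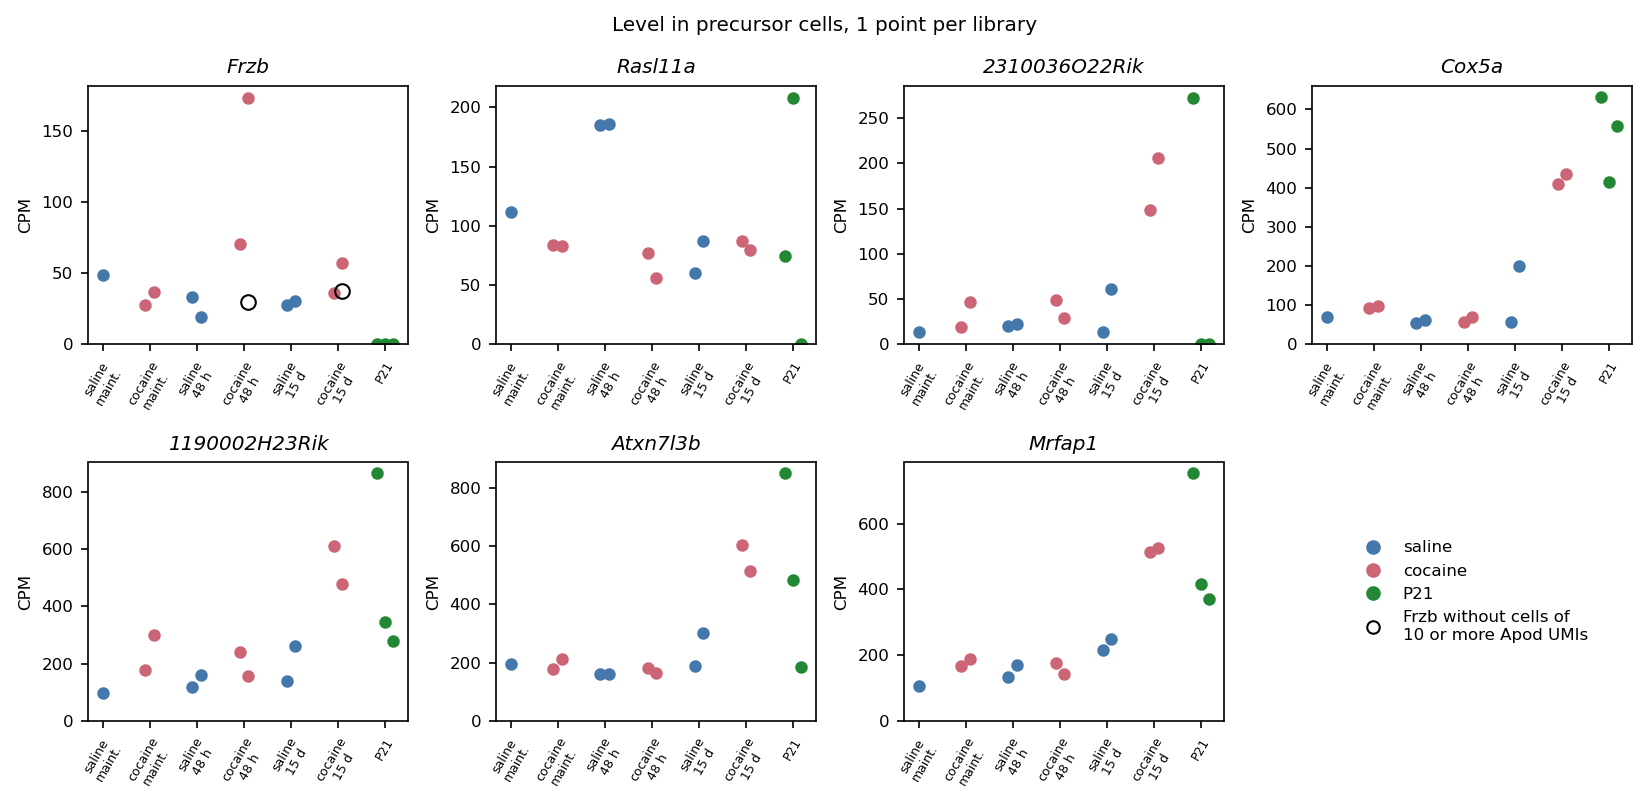
Level (CPM, linear axis from 0) of the 2 genes called at 48 h and the 5 called at 15 days in every library with at least 5 OPCs, by group, with saline in blue, cocaine in red and P21 in green. Open circles give Frzb without the cells with 10 or more Apod UMIs in the libraries that held such cells, 29.5 against 173 CPM in cocaine 48 h replicate 2 and 37.4 against 57.1 CPM in cocaine 15 d replicate 2, while the cocaine 15 d libraries held 410 and 434 CPM of Cox5a.

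For age, the 3 P21 libraries were set against 5 saline P60 libraries, the same ones that served as controls for cocaine. The saline P60 mice had gone through IVSA and the P21 mice had not, so age and the procedure cannot be told apart. Of 3454 genes tested, 20 (0.579%) were called, 5 higher at P60 and 15 higher at P21, while 371 had an unadjusted p below 0.05. DESeq2 called 38, of which 19 were among the 20. The comparison rests on 41 P21 cells. The median log2 change of all genes was 0.10. The median share of mitochondrial UMIs was 3.85% to 5.54% in the OPCs of the P21 libraries and 2.53% to 3.41% in those of P60 libraries, and its part in the differences was not tested.

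Genes higher at P60 included Ptn, pleiotrophin, a secreted ligand of Ptprz1. It was at 2196, 1556, 1209, 877 and 1073 CPM in the saline P60 libraries and at 445, 346 and 372 CPM at P21. The groups did not overlap, and the log2 change was 1.78 ± 0.33 (SE, adjusted p = 0.0128 by edgeR). Tmem59l, a membrane protein of the brain, was at 328, 417, 384, 365 and 330 CPM against 61.9, 0 and 186 CPM (2.41 ± 0.43, adjusted p = 0.00767 by edgeR). Ifi27l1 lay at 401 to 778 against 198, 69.2 and 186 CPM, Itm2c at 918 to 1562 against 470, 346 and 743 CPM, and Enpp5 at 103 to 146 against 12.4, 0 and 0 CPM. Their log2 changes were 1.82, 1.32 and 3.54 with adjusted p of 0.0142, 0.0223 and 0.0409 by edgeR. The Enpp5 value rests on 1 UMI at P21, so its fitted change depends on the prior count. Few UMIs also stand behind the other P21 values: 5, 0 and 2 for Tmem59l, 16, 1 and 2 for Ifi27l1, 38, 5 and 8 for Itm2c and 36, 5 and 4 for Ptn. All 5 were separated between the ages, as were 13.2% of the genes tested. Tmem59l, Ifi27l1 and Enpp5 were also higher at P60 in all 7 other cell types by their means, as were 379 of the 3454 genes tested, Itm2c in 5 of 7 and Ptn in 4 of 7. The libraries did not overlap in 4 of the 7 types for Tmem59l, Ifi27l1 and Itm2c, in 2 for Enpp5 and in 1 for Ptn. In any 1 of these types 2.29% to 20.3% of the genes tested were separated in this direction.

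Genes higher at P21 included 2 inhibitors of basic helix-loop-helix factors. Id1 was at 13.9, 13.3, 27.8, 69.2 and 63.9 CPM in saline P60 libraries and at 322, 139 and 186 CPM at P21, a log2 change of -2.68 ± 0.53 (adjusted p = 0.0196 by edgeR). Id3 was at 216, 272, 225, 125 and 135 CPM against 532, 416 and 2136 CPM, a log2 change of -2.02 ± 0.40 (adjusted p = 0.0409 by edgeR). Neither overlapped, as for 13.2% of all genes tested. They were the 2 members called of 15 tested Id, Notch and Sox genes, beside 0.579% of all genes. The low-count filter can be passed through the libraries of 1 group alone, here those of P21 for Id1. This count therefore carries no test. Hey1, a target of Notch, did not pass (log2 change -2.52, adjusted p = 0.0542 by edgeR), and Id2 had the opposite sign (1.54, adjusted p = 0.26 by edgeR). Both Id1 and Id3 are abundant in P60 endothelial cells, at 3284 ± 391 and 2436 ± 177 CPM (n = 12). Id3 was also at 881 CPM in the astrocytes of the saline P60 libraries and at 3045 CPM in P21 astrocytes, and 7 of the 41 P21 OPCs were astrocytes by the authors' class. The summed astrocyte markers were 9624, 5678 and 6873 CPM in the P21 OPCs and 4000 to 6920 CPM in the saline P60 libraries, so that only P21 replicate 1 lay above. The part of RNA of these cells in the Id1 and Id3 differences was not tested. By their means Id1 was higher at P21 in 6 of the 7 other types and Id3 in 5. They were without overlap in 2 and 3 of the 7, beside 4.40% to 20.6% of genes in any 1 type. In the P21 cells that were OPCs by both cluster and class, described below, the sign of Id3 turned.

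Cldn5, a tight junction protein of endothelial cells (chromosome 16, chr16:18776940-18778353, NCBIM37), had the largest fold of the 20. It was at 6.97, 0, 2.78, 23.1 and 6.73 CPM in saline P60 libraries and at 495, 69.2 and 557 CPM at P21, where the 3 values stood for 40, 1 and 6 UMIs. The log2 change was -5.57 ± 0.59 (adjusted p = 2.39e-05 by edgeR). Sparc was at 62.8, 26.5, 36.1, 78.4 and 80.7 against 668, 416 and 836 CPM, a log2 change of -3.41 ± 0.36 (adjusted p = 2.39e-05 by edgeR). Of 4 endothelial markers tested, 2 were called, both higher at P21 (Cldn5 and Itm2a), against 0.579% of all genes tested, and all 4 had a negative log2 change. A gene can pass the low-count filter through the libraries of 1 group alone. Cldn5, with at most 5 UMIs in a saline P60 library, passed it through the P21 libraries. These counts of markers therefore carry no test. The summed level of the 10 endothelial markers was 872 to 1177 CPM in the saline P60 libraries and 4948, 969 and 7337 CPM at P21, and a Cldn5 UMI was found in 2.74% of P60 OPCs and 19.5% of P21 OPCs (8 of 41). Fibroblast Dcn was found in 2 of the 41. The endothelial sum was thus raised in P21 replicates 1 and 3 and within the saline P60 range in replicate 2, whose Cldn5, Id1 and Sparc values rest on 1, 2 and 6 UMIs and whose summed mural and fibroblast markers were the highest, at 1523 CPM. The part of RNA of these cells in the differences was not tested. Cldn5 and Sparc were higher at P21 in all 7 other types by their means, as were 8.83% of all genes tested. Each was without overlap in 4 of the 7, beside 4.40% to 20.6% of genes in any 1 type.

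The other genes higher at P21 were Cox5a, Mff, Nfkbia, Pltp, Ifitm3, Sepp1, Mrfap1, Gnb2, Tmsb4x and Myl12a, of which the last 4, with Itm2a, are named beyond the rule for named genes, to account for all 15. Mff, which acts in mitochondrial fission, was at 57.2 to 72.3 CPM against 322, 139 and 372 CPM (log2 change -2.17 ± 0.36, adjusted p = 0.004 by edgeR). Its P21 values stand for 26, 2 and 4 UMIs. Nfkbia, an inhibitor of NF-kB, was at 48.8 to 111 CPM against 433, 277 and 464 CPM (-2.24 ± 0.35, adjusted p = 0.00261 by edgeR). None of these P21 values fell within the saline P60 range. Nfkbia, Sparc and Tmsb4x had their highest P60 mean in microglia (6531, 4169 and 21950 CPM). The summed microglia markers were 2190, 69.2 and 92.9 CPM in the P21 libraries and 90.6 to 296 CPM in the saline P60 libraries, and the summed mural and fibroblast markers 965, 1523 and 92.9 CPM against 20.9 to 245 CPM. The microglia sum was thus raised in 1 P21 library and the mural and fibroblast sum in 2, and their part in these differences was not tested. Tmsb4x, thymosin beta 4, which binds actin monomers, was at 2583 to 3357 CPM against 4961, 13160 and 10310 CPM. Cox5a was at 53.0 to 199 CPM against 631, 416 and 557 CPM (log2 change -2.58 ± 0.48, adjusted p = 0.0305 by edgeR), and Mrfap1 at 105 to 249 against 755, 416 and 372 CPM. For these 2 genes, the P21 libraries and the 15 d cocaine libraries (410 and 434 CPM of Cox5a, 513 and 525 CPM of Mrfap1) lay above every saline P60 library. Of the 20 genes called, 19 did not overlap in OPCs, Itm2a being the exception. By their means Cox5a, Mrfap1 and Mff were higher at P21 in all 7 other types too, as were 8.83% of genes. They were without overlap in 6, 5 and 4 of the 7, beside 4.40% to 20.6% of genes in any 1 type. Nfkbia, Pltp, Ifitm3, Sepp1, Gnb2, Tmsb4x and Myl12a were higher at P21 in 4 to 6 of the 7, where 18.8% of genes were so in at least 6.

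**Figure D5:**
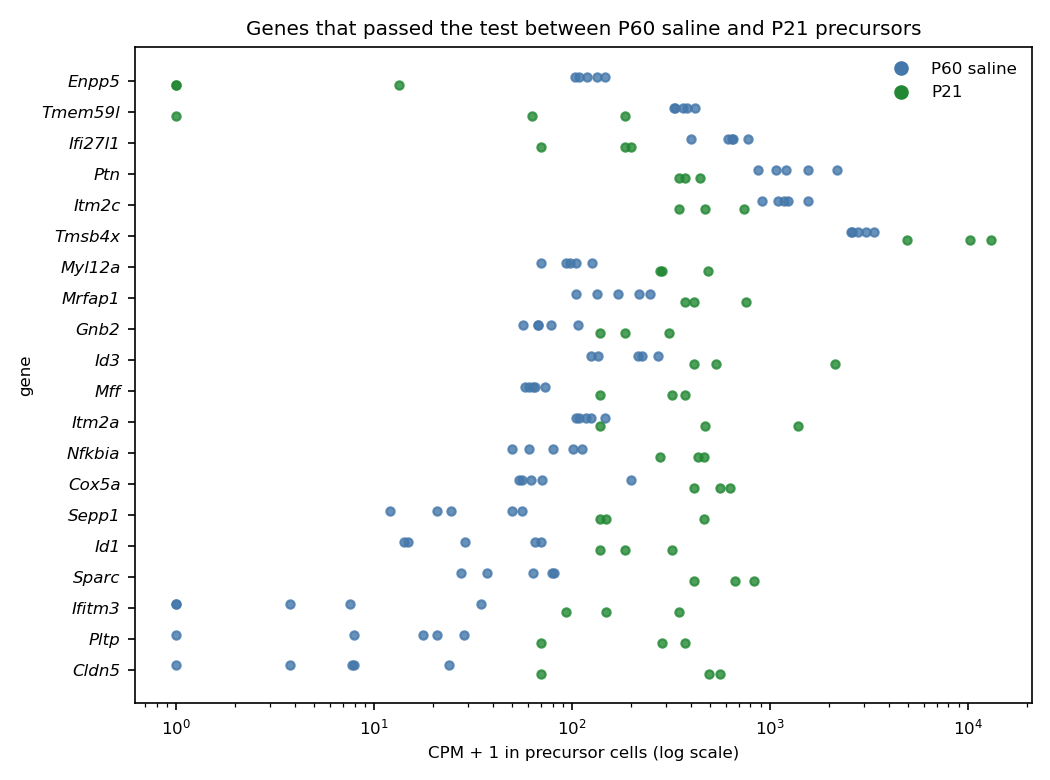
Level (CPM plus 1, log axis) of the 20 genes called between saline P60 (blue, 5 libraries) and P21 (green, 3 libraries), a point per library. Ptn lay at 877 to 2196 CPM at P60 and 346 to 445 CPM at P21, and Cldn5 at 0 to 23.1 and 69.2 to 557 CPM.

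Genes of OPC identity were not called between the ages. Of 25 tested, 20 had a higher fitted level at P60, the median log2 change was 0.22 beside 0.10 for all genes, and 0 passed. Pdgfra had a log2 change of 0.61 ± 0.29 (adjusted p = 0.461 by edgeR), Vcan of 0.73 (adjusted p = 0.349), Neu4 of 1.23 (adjusted p = 0.292) and Ptprz1 of -0.03 (adjusted p = 1). Of 6 commitment and 6 myelin genes tested, 0 were called, and Gpr17 had a log2 change of -0.31 (adjusted p = 0.761 by edgeR). Of 25 cell cycle genes 10 were tested, all had a higher fitted level at P60 and 0 were called. A gene can pass the low-count filter through the libraries of 1 group alone, so a direction shared by the tested members of a list carries no test. The summed cell cycle list was at 372 to 485 CPM at P21 and 1103 to 5343 CPM in the saline P60 libraries. Top2a and Mki67 had 0 UMIs in the 41 P21 OPCs, so no fold is given. These values hold for retained OPCs only. Among barcodes with OPC markers that were not retained, 20 of 46 held a Top2a UMI at P21 and 0 of 366 at P60, so cycling at the 2 ages cannot be compared from them. The 7 receptors for growth factors and other signals that were tested had a median of 0.51, all above 0, and the 8 genes of the ion channel list one of 0.71, with 7 above 0, again with 0 called. Medians of the other lists were 0.23 for 10 glutamate and GABA receptors, 0.19 for 19 matrix genes, 0.18 for 8 genes of cholesterol synthesis, -0.18 for 17 immediate early genes, 0.29 for 11 neuron markers, -0.51 for 7 astrocyte markers, -1.30 for the 1 microglia marker and -2.34 for 2 mural and fibroblast markers, with 0 called.

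The age result depended on which cells counted as OPCs. With the 22 P21 cells that were OPCs by both the cluster and the class, 2 P21 libraries had at least 5 cells, and 0 of 3943 genes passed edgeR, with 422 at an unadjusted p below 0.05 (DESeq2 was not run on these cells). Among these cells the sign turned for Id3 (0.16, adjusted p = 0.969; alternatives between 0.000126 and 0.969), Itm2a (0.69) and Myl12a (0.42). Id1 had a log2 change of -0.52 (adjusted p = 0.942; alternatives between 1.48e-06 and 0.942) and Sparc of -1.16 (adjusted p = 0.624; alternatives between 2.83e-14 and 0.624), while Ptn (2.17, adjusted p = 0.129; alternatives between 9.32e-07 and 0.323), Tmem59l (2.76, 0.114; between 2.35e-05 and 0.271), Mff (-2.23, 0.129; between 8.3e-05 and 0.355) and Cox5a (-2.02, 0.296; between 1.88e-09 and 0.352) had a log2 change above 2 in size without passing. Cldn5 was not among the genes tested there. Leaving out 1 library gave 48 calls without saline 15 d replicate 1, 42 without saline 15 d replicate 2, 12 without saline 48 h replicate 1, 10 without saline 48 h replicate 2, 12 without P21 replicate 1 and 11 without P21 replicate 3. Without both 15 d libraries there were 142, with 18 of the 20 among them. Without P21 replicate 1, which held 28 of the 41 cells, 4 of the 20 remained.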

How the data were processed

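The deposited values are raw UMI counts per gene and barcode, which the authors made by aligning reads to mm9 (NCBIM37). The submitters' processing notes name Cell Ranger and Seurat 2.1.0. The deposited table of retained cells gives cluster, class and the fraction of mitochondrial UMIs set by the authors, who had removed cells with a high mitochondrial share or very many genes (likely doublets). No doublet caller was run here. Of 26145 genes, those of ribosomal proteins (143) and mitochondria (13) were dropped. Repeated symbols belong to 304 genes, and 6 list members with such a symbol (Fgfr1, Sox4, Zeb1, Kcnh8, Scn8a and Hmgcs1) were not used. UMIs were summed per library (scipy 1.17.1, pandas 2.3.3, numpy 2.4.6, python 3.11.15; figures with matplotlib 3.10.9), and libraries with fewer than 5 OPCs were left out of levels by library and of gene tests. The edgeR fits (version 4.0.16 under R 4.3.3) had its low-count filter, TMM scaling, robust dispersion and a mean for each of the 6 P60 groups, or for P21 and saline P60. SE are derived from the F statistic. Shares were compared by exact permutation, two-sided. Nothing in the labels ties replicates to animals beyond the pools, so p-values measure the spread between these libraries. Intervals and floors (3 counts) cover counting error only. Positions are from the GENCODE annotation of NCBIM37, and 340 of 340 genes looked up matched by identifier.

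The members and the 16 gene lists (303 genes) were chosen with earlier results of these data known. Named were list members, the 25 genes with the largest ratio to the next type at 50 CPM or more, up to 10 called genes in each direction without overlap (with fewer than 5 calls, the 10 lowest p), and the 5 leading genes of each sub-cluster with at least 20 UMIs. The tests were tested on simulated counts. Alternatives were DESeq2 1.42.0, DESeq2 size factors, no low-count filter, Bonferroni adjustment, no fold cutoff, minima of 10 and 20 cells, the authors' class, cells without Snap25, other denominators, all P60 libraries, and each library left out. Added after seeing the data were cells named OPC by both cluster and class, no cells with 10 or more Apod UMIs, no 15 d libraries, and shares of marker barcodes. Results of 3 genes that the rule names are not reported here.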

Additional observations from a re-analysis of the deposited data

Results flagged for a closer look

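In 26 measures, each tested for a single outlying library, 4 stood out. The measures were shares of OPCs and of cycling OPCs, and the levels of the 20 genes called by age in the same saline P60 libraries. They are not independent and mix time points, so no number expected by chance is given. Cocaine 48 h replicate 2 had OPCs as 67.7% of its lineage cells, against 10.0% in the lowest cocaine library and a median of 26.5%. In saline 15 d replicate 1, 28.9% of retained OPCs held at least 5 cell cycle genes, against a median of 5.83% over the saline libraries. Saline 15 d replicate 2 stood out in 2 genes among saline P60 libraries, with 198.5 CPM of Cox5a (median 61.1) and 33.6 CPM of Ifitm3 (median 2.78).

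Data outside the comparisons also held OPC markers. At 15 days 304 barcodes with these markers were not retained, 63.2% of such barcodes, and at P21 46 were not retained (30.9%). A further 78 P21 cells with OPC markers were retained under another type, and 29 P21 cells of the authors' class OPC lay in clusters of excitatory neurons. How these cells would change the gene results was not tested, beyond the comparison by class given with the dependence on processing. For the shares, a comparison over all barcodes with OPC markers is given above.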

How the results depend on the processing

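No paired analysis was possible because the replicates were numbered in accession order and nothing pairs libraries across groups. Over all time points cocaine gave 0 called genes, but 1 with DESeq2 size factors in edgeR, 2 without the low-count filter, 2 with the authors' class, 3 without cells of 10 or more Apod UMIs, and 0 to 21 with a library left out. At maintenance every alternative run gave 0. At 48 h the 2 calls became 1 with Bonferroni, 0 with DESeq2, 7 without the filter, 0 without Snap25 cells, 0 without cells of 10 or more Apod UMIs, and 0 to 11 with a library left out. At 15 days the 5 calls became 3 with Bonferroni, 0 with DESeq2, 3 without the filter, 3 with the class, 0 without Snap25 cells, and 0 to 31 with a library left out. The difference between the times gave 2 calls without the filter and 0 to 3 with a library left out. Without saline maintenance replicate 1, neither the comparison at maintenance nor that over all times can be computed.

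The 20 calls between the ages became 7 with Bonferroni, 38 with DESeq2, 168 without the filter (median log2 change of all genes 0.64), 35 with at least 10 or at least 20 OPCs per library, 31 with all P60 libraries, 0 with both cluster and class, 142 without the 15 d libraries, and 10 to 48 with a library left out. With the class alone there were 1195, and signs turned for Enpp5 (-0.24), Tmem59l (-0.28), Sparc (0.41), Id3 (1.79), Itm2a (0.69) and Myl12a (1.24). With cluster and class, they turned for Id3 (0.16), Itm2a (0.69) and Myl12a (0.42). The class at P21 holds 29 cells of excitatory neuron clusters. With at least 10 or at least 20 OPCs per library, P21 replicate 1 was the only P21 library left. It held 28 OPCs, of which 14 were also OPCs by class. The calls at these 2 minima therefore have no replicate at P21, and no conclusion is drawn from their number. With all P60 libraries, 11 of the 20 genes kept their call and 9 kept their direction without a call.

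With a library left out, the share of OPCs among retained cells differed by -0.392 to 1.77 points between cocaine and saline and by -3.38 to -2.06 points between P21 and saline P60. Within the lineage these ranges were -2.98 to 9.10 and -26.9 to -15.9 points. Among OPCs and NF Oligo alone the differences were -10.5 points (reversed, exact permutation p = 0.12) and -68.8 points (exact permutation p = 0.0119, the smallest possible). With all P60 libraries the P21 difference in the lineage was -24.6 points (exact permutation p = 0.0352). Where no cause is given, the cause was not tested. The P21 values rest on 41 cells.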
